A study of Mus musculus with 12 samples.

Results

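A set of 7 genes that carry organic cations, carnitine and drugs across kidney cell membranes was followed in whole kidney RNA, namely Slc22a2, Slc22a4, Slc22a5, Slc47a1, Abcb1a, Abcb1b and Abcc2. They were taken by gene name from the table of expression values, which holds 22053 rows, and these 7 were the rows with those names. The values are FPKM, a count of fragments divided by the length of the transcript and by the reads mapped in that library, so levels of different genes are compared here per length. All 7 genes passed the limit for the test across genes (1 FPKM or more in 4 or more of the 12 mice), as 13148 genes in all did. Abcb1a reached 1 FPKM in only 1 control mouse, so it passed that limit mainly through the diseased mice.

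The study asked what iron therapy does to the kidney in chronic kidney disease (CKD), and here its effect on these transporters is described. All mice were C57BL/6 and were studied at 16 weeks of age. Control mice (n = 4) ate the regular diet and were injected i.p. with PBS each week. CKD mice (n = 4) ate the same diet with 0.2% adenine from 8 weeks of age for 8 weeks, which injures the tubules, and were also given PBS. CKD+Fe mice (n = 4) ate the adenine diet and were injected i.p. each week with iron dextran at 0.5 g/kg. No group received iron without the adenine diet, so an effect of iron on the healthy kidney cannot be read from these mice. Each mouse gave 1 library, and mice are named by their numbers.

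The proximal tubule secretes cations and drugs in 2 steps. Slc22a2 (OCT2) takes up organic cations such as creatinine and metformin from the blood across the basolateral membrane, and Slc47a1 (MATE1) passes them into the urine at the brush border in exchange for protons. Slc22a5 (OCTN2) is the sodium-dependent carnitine transporter that recovers filtered carnitine, and Slc22a4 (OCTN1) is its relative that carries ergothioneine. Abcc2 (MRP2) exports glutathione and glucuronide conjugates from the apical membrane with energy from ATP. Abcb1a and Abcb1b are the 2 mouse genes for P-glycoprotein (MDR1), which exports hydrophobic drugs.

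All but 2 of the genes lie beside relatives, which bears on how their reads could be counted. On GRCm38, Slc22a2 is at chr17:12584189-12628465 on the plus strand, 76.5 kb from Slc22a3 (OCT3). Slc22a5 (chr11:53864542-53891660) and Slc22a4 (chr11:53983123-54028090) are both on the minus strand with Slc22a21 (OCTN3) between them, 58.3 kb from Slc22a5 and 2.79 kb from Slc22a4. Abcb1a (chr5:8660077-8748575) and Abcb1b (chr5:8798147-8866315) follow each other on the plus strand 49.6 kb apart. Slc47a1 is at chr11:61343401-61378345 on the minus strand, and Abcc2 is at chr19:43782192-43840740 on the plus strand. These spans are those of the expression table and cover exons, introns and UTRs. For Slc22a2, GENCODE M21 gives a longer span, 12584132 to 12628488, so the end of its promoter window printed below lies inside that span.

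Promoter sequences were looked up because several of these genes moved together. RefSeq promoters (GRCm38.p6) were held for 6 of the 7 genes, and 3 are shown: Slc22a2 had the largest fall in CKD, Abcb1b the largest rise, and Abcc2 the largest difference with iron. Each is the 250 bases before the RefSeq start, at chr17:12583939-12584188, chr5:8797897-8798146 and chr19:43782058-43782307, all on the plus strand. Capitals mark matches, on either strand, to the GC box (GGGCGG), the CCAAT box (CCAAT), a nuclear receptor core site (AGGTCA) and the antioxidant response element core (TGACNNNGC).
Slc22a2: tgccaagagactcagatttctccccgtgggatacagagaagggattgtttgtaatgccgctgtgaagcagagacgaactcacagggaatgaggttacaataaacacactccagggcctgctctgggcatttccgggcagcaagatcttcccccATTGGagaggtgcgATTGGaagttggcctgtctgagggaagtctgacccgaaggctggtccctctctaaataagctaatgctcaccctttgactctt
Abcb1b: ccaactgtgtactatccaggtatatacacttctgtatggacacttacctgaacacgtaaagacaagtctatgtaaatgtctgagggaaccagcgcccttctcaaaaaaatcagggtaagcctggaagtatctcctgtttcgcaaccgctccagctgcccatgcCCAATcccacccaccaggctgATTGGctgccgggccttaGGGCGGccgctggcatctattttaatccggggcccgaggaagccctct
Abcc2: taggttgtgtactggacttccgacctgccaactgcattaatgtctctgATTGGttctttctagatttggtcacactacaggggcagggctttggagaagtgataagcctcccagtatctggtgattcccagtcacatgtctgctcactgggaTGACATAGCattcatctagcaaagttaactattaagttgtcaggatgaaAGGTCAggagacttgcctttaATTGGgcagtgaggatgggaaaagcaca
The GC box was in 3 of the 6 windows (Abcb1b, Slc22a4 and Slc22a5) and in 32.7% of all 32851 RefSeq promoter windows. The CCAAT box was in 3 of 6 (the 3 printed) and in 33.8% of all. The receptor site and the antioxidant core were each in the Abcc2 window only, and in 14.0% and 10.2% of all promoters. TATAAA (in 12.4% of all) was in 0 of the 6. For Abcb1a, the RefSeq start lies 92986 bases from the start of the gene in the expression table, so its window may not be that of the transcript measured. For Abcc2 the RefSeq start lies 116 bases inside the gene span given above. Its antioxidant core (at -98 from the RefSeq start), receptor site (-49) and nearer CCAAT box (-28) therefore lie within that span, not before it. The windows were searched for these letters only, and a match is not evidence of binding.

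The tissue was labelled as kidney, and markers of the proximal tubule were detected in all 12 mice. Most of them, like 5 of the 7 transporters, were lower in the CKD mice. The sum of 13 proximal tubule markers ran from 8594 to 11447 FPKM in control mice, from 1449 to 2859 with CKD and from 1438 to 4409 with CKD+Fe, and 11 of the 13 were lower in CKD than in control by limma. The marker Slc13a1 was called higher (log2 fold change 0.69, adjusted p = 0.0377 by limma), also with quantile normalization but not with median-of-ratios rescaling. Slc5a12 was not called. All 6 macrophage markers (sum 78.0 to 133, 637 to 1370 and 703 to 1411 FPKM) and all 5 tubule injury markers (436 to 713, 10737 to 19470 and 7756 to 13905 FPKM) were higher in CKD. The part of cell composition in the results was not tested, and in bulk tissue fewer cells of a type and less RNA per cell cannot be told apart. The other lists were 6 genes of other nephron segments (1 lower in CKD, Aqp2, but 0 lower and 2 higher with quantile normalization), 7 endothelial genes (1 lower, Kdr, with 6 lower with median-of-ratios rescaling and 4 with quantile normalization), 3 tested lymphocyte genes of 5 (2 higher, and 0 under either rescaling) and 7 genes of papilla and urothelium (0 called at an adjusted p under 0.05; 0 at an unadjusted p under 0.05).

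In each group 1 mouse stood apart from their groups in earlier results on all genes, and each of these 3 had the highest endothelial sum of its group, namely control mouse 042301 (387 FPKM, others 170 to 188), CKD mouse 110310 (220, others 127 to 159) and CKD+Fe mouse 042702 (236, others 132 to 181). Values without these 3 mice are given where they change a call or move a value by over 1.5 times. Depth in reads is unknown for these files. The median gene was 0.50 higher in CKD than in control on the log2 scale, and 0.50 higher in CKD+Fe, so each value below is relative to a table in which most genes rose.

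In CKD 5 of the 7 genes were lower than in control under each scaling of the mice tried, and the 2 P-glycoprotein genes were higher in the values as deposited, a call that depended on the scaling (1 of the 2, Abcb1b, with median-of-ratios rescaling and 0 with quantile normalization). As deposited, Slc22a2, Slc47a1, Slc22a5, Slc22a4 and Abcc2 fell, where 13.3% of all genes tested were lower, and Abcb1a and Abcb1b rose, where 54.6% of all genes were higher. The 5 falls of 7 are a larger share than in the table as a whole, and the 2 rises of 7 a smaller one. Calls are by limma on log2(FPKM + 1) with Benjamini-Hochberg adjustment over all genes tested, at an adjusted p under 0.05. With CKD+Fe mice set against control, 3 genes were lower (Slc22a2, Slc47a1 and Slc22a5; 11.0% of all genes) and the same 2 were higher (54.4% of all genes). These 2 comparisons share the control mice. Between CKD+Fe and CKD mice no gene of the 7 was called, and 1 of all genes tested was higher (0.00761%).

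**Figure D1:**
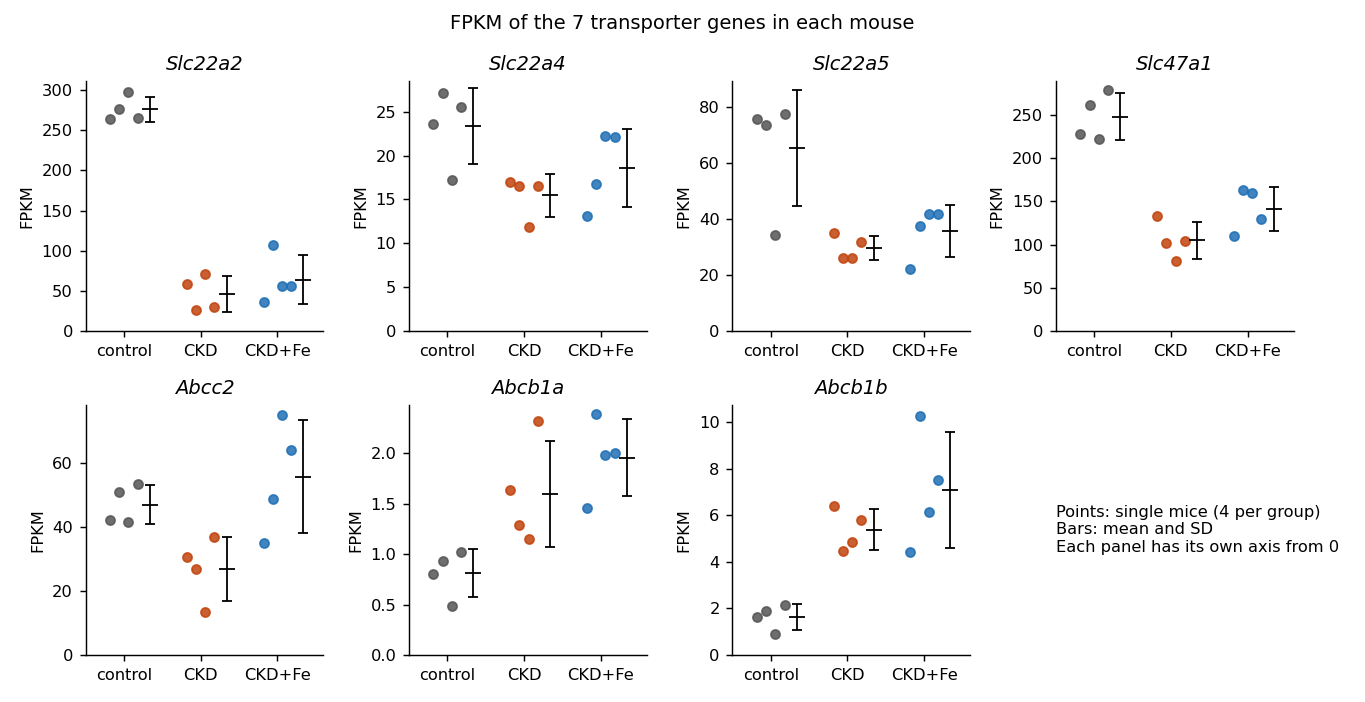
FPKM (vertical axes, each from 0) of the 7 transporter genes in each of the 12 mice; points are single mice and bars the mean and SD of 4. Slc22a2 and Slc47a1 are far below control in all 8 diseased mice, Abcb1a and Abcb1b are above control in all 8, and Abcc2 is low in CKD and spread from 35.1 to 75.2 FPKM in CKD+Fe.

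Slc22a2 had the largest change. Control mice had 264, 276, 297 and 266 FPKM of this basolateral cation transporter, CKD mice 58.4, 25.9, 71.4 and 30.3, and CKD+Fe mice 36.3, 107, 56.6 and 56.6. No diseased mouse came near the lowest control, and the controls differed little among themselves. The mean fell from 276 ± 15.3 (SD, n = 4) to 46.5 ± 22.0 FPKM in CKD, 16.8% of control, and was 64.2 ± 30.3 in CKD+Fe. On the log2 scale the fall was -2.67 (SE 0.33, adjusted p = 1.32e-05 by limma) in CKD and -2.19 in CKD+Fe against control (adjusted p = 8.11e-05). Only 0.464% of all genes tested had a lower log2 fold change than Slc22a2 in CKD. The order of mice within CKD was not that of the other transporters: mouse 110310 had the highest Slc22a2 of its group and the lowest Slc47a1, Slc22a4 and Abcc2.

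Slc47a1, which completes the secretion of cations at the brush border, fell less. It was listed at 228, 261, 222 and 279 FPKM in controls, at 133, 101, 80.8 and 104 in CKD, and at 110, 163, 159 and 129 in CKD+Fe mice. Again the control values lay above all 8 diseased mice. The mean of 248 ± 26.9 FPKM in control was 105 ± 21.6 in CKD, 42.4% of control (log2 fold change -1.25, SE 0.17, adjusted p = 3.15e-05 by limma), and 141 ± 25.4 in CKD+Fe (-0.82 against control, adjusted p = 0.000912 by limma). With quantile normalization the call of CKD+Fe against control was lost (adjusted p = 0.0521 by limma).

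Because the RNA of the uptake and the efflux transporter fell unequally, the order of the 2 genes was exchanged. Slc22a2 was the highest of the 7 genes in 3 of 4 control mice, and Slc47a1 was the highest in all 8 diseased mice. The log2 ratio of Slc22a2 to Slc47a1 within a mouse, which depends little on how mice are scaled to each other at these levels, had a control mean of 0.16 ± 0.21 (SD, n = 4). It was -1.26 ± 0.79 in CKD and -1.21 ± 0.44 in CKD+Fe mice. In linear terms, on FPKM + 1, Slc22a2 was 0.953 to 1.34 times Slc47a1 in controls and 0.262 to 0.885 times in CKD. The CKD mice lay below all controls (exact two-sided permutation test, p = 0.0286, the smallest that 4 mice against 4 allow, and 0.0571 after adjustment over 30 ratio tests), and so did the CKD+Fe mice (p = 0.0286, adjusted 0.0571). The difference of CKD from control was -1.42, and -1.41 and -1.57 after median-of-ratios and quantile rescaling. Mouse 110310 stood nearest to the controls, with a log2 ratio of -0.18 against -0.07 in the lowest control.

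The carnitine transporter Slc22a5 fell in CKD, but 1 control mouse was as low as the CKD mice. Control mice had 75.7, 73.4, 34.2 and 77.5 FPKM, CKD mice 34.8, 26.0, 26.1 and 31.7, and CKD+Fe mice 22.2, 37.6, 41.6 and 41.7. Mouse 042301 held the value of 34.2, so control and CKD overlapped, while the other 3 controls were above every diseased mouse. The means were 65.2 ± 20.7, 29.7 ± 4.34 and 35.8 ± 9.23 FPKM. By limma the log2 fold change was -1.05 (SE 0.26, adjusted p = 0.00277) in CKD and -0.82 (adjusted p = 0.0133) in CKD+Fe against control, whereas the exact permutation test on CKD against control gave p = 0.0571. When mouse 042301 was left out, the fold change was the largest of the leave-one-out fits, -1.33.

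Slc22a4 followed Slc22a5 from mouse to mouse with a smaller difference between groups. It measured 23.6, 27.1, 17.3 and 25.5 FPKM in controls, then 17.0, 16.6, 11.9 and 16.6 in CKD, then 13.1, 16.8, 22.3 and 22.1 in CKD+Fe mice. Control and CKD were separated only by the step from 17.3 to 17.0, and CKD+Fe overlapped both. The means were 23.4 ± 4.31, 15.5 ± 2.43 and 18.6 ± 4.43 FPKM, and the log2 fold change of CKD against control was -0.56 (SE 0.19, adjusted p = 0.0189 by limma). This call was lost without control mouse 012822 (-0.48, adjusted p = 0.0596) or without CKD mouse 110310 (-0.44, adjusted p = 0.0538). In CKD+Fe the value against control was -0.33 (adjusted p = 0.144 by limma), and it passed the threshold without mouse 042301 (-0.46, adjusted p = 0.0434), without the 3 mice that stood apart (-0.31, adjusted p = 0.0382) and under both rescalings (-0.87 and -0.67). Across the 12 mice the log2 values of Slc22a4 and Slc22a5 had a Pearson r of 0.907, a description over mice that share their groups. After group means were removed it was 0.848. This was not particular to the pair, with 0.841 for Slc22a4 and Abcc2 and 0.801 for Slc22a5 and Abcb1b, but -0.13 for Slc22a2 and Slc22a4. Slc22a4 was the lowest of its group in each of the 3 mice that stood apart. Slc22a5 was lowest in 042301 and 042702, and in 110310 (26.1 FPKM) was close to the lowest CKD mouse (26.0). The part of these mice in the r was not tested. The log2 ratio of Slc22a5 to Slc22a4 was 1.39 ± 0.31 in control and 0.90 ± 0.20 in CKD, a difference that did not pass the exact permutation test (-0.49, p = 0.0857, adjusted over 30 ratios 0.135), and was -0.24 with quantile normalization.

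Part of the Slc22a5 sequence is shared with its neighbour. Of all 50-base words in the annotated Slc22a5 transcripts, the length of the reads, 26.3% also occur in transcripts of other genes, nearly all of them in Slc22a21 (812 of 818 words). Slc22a21 had 1.18 ± 0.297 FPKM in control mice, 4.44 ± 2.65 in CKD and 5.59 ± 0.964 in CKD+Fe, so the means of the 2 genes moved in opposite directions. Single mice overlapped for Slc22a21, with 0.889 to 1.46 FPKM in control and 1.18 to 7.66 in CKD. Its rise in CKD was not called with quantile normalization. How such reads were divided between them is not given in the sources used here, and the values of both are uncertain to that extent. The sum of both was 66.4 ± 20.5 FPKM in control mice, 34.1 ± 5.10 with CKD and 41.4 ± 9.33 with CKD+Fe. Control and CKD overlapped in this sum as they did for Slc22a5 alone (log2 difference -0.89, exact permutation p = 0.0857).

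The 2 P-glycoprotein genes were the lowest of the 7 in all 12 mice, and as deposited they were higher in disease. Abcb1b had 1.62, 1.89, 0.878 and 2.12 FPKM in the control mice, with 6.38, 4.48, 4.85 and 5.81 in CKD, and 4.41, 10.3, 6.14 and 7.52 with CKD+Fe. Every diseased mouse was above every control. The mean of 1.63 ± 0.540 in control was 5.38 ± 0.873 in CKD, 3.31-fold higher (log2 fold change 1.30, SE 0.22, adjusted p = 0.000188 by limma), and 7.08 ± 2.48 in CKD+Fe (1.60 against control, adjusted p = 4.68e-05 by limma). This rise exceeded that of 85.7% of all genes tested. With median-of-ratios rescaling it was 0.89 (adjusted p = 0.00602 by limma), and with quantile normalization 0.48 (adjusted p = 0.136).

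Abcb1a rose in CKD by about the median shift of all genes, on the log2(FPKM + 1) scale. Its values were 0.798, 0.936, 0.485 and 1.02 FPKM in controls, with 1.63, 1.28, 1.15 and 2.32 in CKD, and 1.46, 2.39, 1.99 and 2.0 with CKD+Fe. The groups of diseased mice lay above control without overlap, but the levels are near the limit set for testing. The mean went from 0.811 ± 0.236 to 1.60 ± 0.523 FPKM in CKD, 1.97-fold (log2 fold change 0.51, SE 0.17, adjusted p = 0.0157 by limma), and was 1.96 ± 0.381 in CKD+Fe (0.71, adjusted p = 0.00231 by limma). The CKD value is at the 50.4th percentile of all genes, that is, at the median shift. The value of CKD+Fe against control is at the 63.0th percentile. With a pseudocount of 0.1 the CKD value was 0.89 (adjusted p = 0.0123 by limma), above the median of 0.58 over all genes, so its place depended on the pseudocount. The CKD value was 0.21 with median-of-ratios rescaling (adjusted p = 0.309 by limma) and -0.21 with quantile normalization (adjusted p = 0.339), so its direction depended on the scaling. The same holds in CKD+Fe against control, with 0.41 (adjusted p = 0.0585 by limma) and -0.02 (adjusted p = 0.934). The CKD call was also lost without CKD mouse 120102 (adjusted p = 0.0558 by limma).

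Their ratio within a mouse depended less on the scaling. Abcb1b was 1.26 to 1.54 times Abcb1a in control mice, 2.05 to 2.80 times in CKD and 2.20 to 3.33 times in CKD+Fe mice, on FPKM + 1. Adding 1 pulls ratios of such low levels toward 1, so ratios of the FPKM themselves were higher (control means 1.63 FPKM for Abcb1b and 0.811 for Abcb1a). The log2 ratio was 0.52 ± 0.13, 1.31 ± 0.21 and 1.41 ± 0.27 in the 3 groups. Both diseased groups lay above all controls (differences of 0.79 and 0.89, exact permutation p = 0.0286 each, adjusted over 30 ratios 0.0571), and CKD+Fe differed from CKD by 0.10 (exact permutation p = 0.571). After median-of-ratios and quantile rescaling, chosen after seeing the data, the difference of CKD from control was 0.68 and 0.69, and the groups did not overlap (exact permutation p = 0.0286 each). So Abcb1b rose relative to Abcb1a, and a ratio does not tell which of the 2 moved. Of the 50-base words in their transcripts, 17.6% of those of Abcb1a and 11.6% of those of Abcb1b also occur in other genes. Most of these (889 words) are shared between the 2. The sum of the 2 genes was 2.44 ± 0.776 FPKM in control mice, 6.98 ± 1.27 in CKD and 9.04 ± 2.84 in CKD+Fe. The sum in both diseased groups was above all controls (log2 differences of 1.23 and 1.53, exact permutation p = 0.0286 each).

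**Figure D2:**
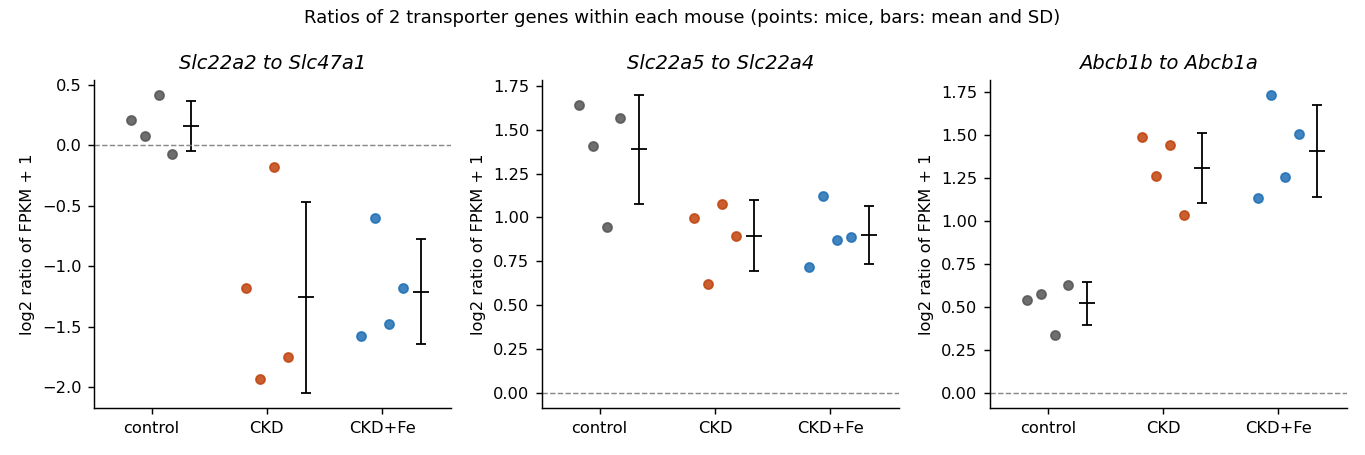
Log2 ratio of FPKM + 1 of 2 transporter genes within each mouse, by group; points are mice and bars the mean and SD of 4, and the dashed line marks equal levels. Slc22a2 to Slc47a1 drops from about equality in control to -1.26 in CKD, and Abcb1b to Abcb1a goes from 0.52 to 1.31, while Slc22a5 to Slc22a4 overlaps between the groups.

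Abcc2 was the gene whose level differed most between the diseased groups. This conjugate exporter had 42.1, 50.9, 41.6 and 53.5 FPKM in controls, with 30.5, 26.9, 13.4 and 36.9 in CKD, and 35.1, 48.6, 75.2 and 64.3 with CKD+Fe. All CKD mice were below all controls. CKD+Fe mice spread around the controls, 2 above the highest of them and 1, mouse 042702, below the lowest and within the CKD range. The mean fell from 47.0 ± 6.05 to 26.9 ± 9.92 FPKM in CKD (log2 fold change -0.86, SE 0.28, adjusted p = 0.0143 by limma) and was 55.8 ± 17.6 in CKD+Fe, 2.07-fold that of CKD. Against control, CKD+Fe differed by 0.19 on the log2 scale (95% interval -0.40 to 0.79, adjusted p = 0.553 by limma), by -0.36 with median-of-ratios rescaling, and by 0.34 without the 3 mice that stood apart. That interval covers both a moderate fall and a moderate rise.

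With iron, Abcc2 was higher than in CKD by 1.05 on the log2 scale (SE 0.28, 95% interval 0.46 to 1.65), which did not pass the threshold after adjustment over all genes (unadjusted p = 0.00209, adjusted p = 0.400 by limma). Of the CKD mice, only mouse 120102 (36.9 FPKM) lay above the lowest CKD+Fe mouse (35.1 FPKM), and the exact permutation test gave p = 0.0571. The difference lay above that of 99.8% of all genes. It passed when mice were weighted by their quality (1.02, adjusted p = 0.0368 by limma) and when the 3 mice that stood apart were left out (0.96, adjusted p = 0.0441). Over the 8 fits that each left out 1 mouse, it ran from 0.76 to 1.25 with adjusted p from 0.110 to 0.999.

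The other 6 genes were also higher with iron than without it, and none of these differences passed the threshold. Log2 differences of CKD+Fe from CKD were 0.47 for Slc22a2 (95% interval -0.23 to 1.17), 0.42 for Slc47a1 (0.06 to 0.79), 0.30 for Abcb1b, 0.23 for Slc22a4, 0.23 for Slc22a5 and 0.20 for Abcb1a, with a median of 0.30 over the 7 genes and -0.000503 over all genes tested. Their adjusted p by limma ran from 0.779 (Slc47a1) to 0.979 (Slc22a5). The sizes depended on single mice. Over the fits that each left out 1 mouse, the difference ran from 0.19 (without CKD+Fe mouse 062910) to 0.72 (without CKD mouse 110310) for Slc22a2, 0.31 to 0.55 for Slc47a1, 0.12 to 0.48 for Abcb1b, 0.11 to 0.38 for Slc22a4, 0.15 to 0.44 for Slc22a5 and 0.12 to 0.32 for Abcb1a. The lowest values came without 110310 (Slc47a1, Slc22a4 and Abcb1a), 062910 (Abcb1b) or 122320 (Slc22a5), and the highest without 042702 (Abcb1b, Slc22a4 and Slc22a5), 021320 (Slc47a1) or 120102 (Abcb1a). Without the 3 mice that stood apart, Slc22a2 was higher with iron by 0.95 (95% interval 0.29 to 1.61, adjusted p = 0.125 by limma), Abcb1b by 0.44 and Slc22a5 by 0.38. In that fit Abcc2 alone of the 7 genes was called, where 0.394% of all genes tested were called higher and 0.247% lower. With all mice, Abcc2 and Slc47a1 were higher at an unadjusted p under 0.05 (2 of 7), against 3.28% of all genes tested. All 7 overlapped between CKD+Fe and CKD, where 1.35% of all genes were higher without overlap. The 7 values are not independent, since the same 8 mice carry them and the proximal tubule markers were also higher with iron in 12 of 13 cases (median 0.42, 0 called at an adjusted p under 0.05, 3 at an unadjusted p under 0.05). CKD+Fe mouse 042702 had the lowest value of its group for each of the 7 genes and the lowest sum of proximal tubule markers.

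**Figure D3:**
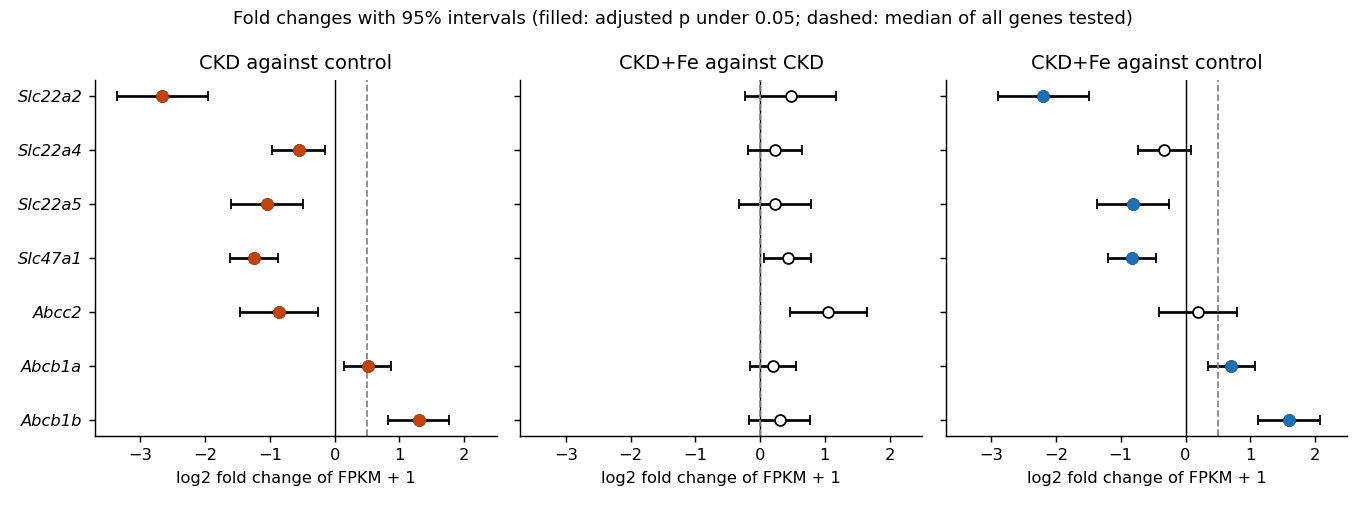
Log2 fold changes of FPKM + 1 with 95% intervals for the 7 genes in the 3 comparisons; filled points have an adjusted p under 0.05 by limma, and the dashed line is the median of all genes tested. The 5 genes that fell are left of zero in CKD, with Slc22a2 at -2.67, and in CKD+Fe against CKD all 7 points are right of zero and open, with Abcc2 at 1.05.

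Counted by overlap alone, 4 genes were lower in every CKD mouse than in every control (Slc22a2, Slc22a4, Slc47a1 and Abcc2), against 10.4% of all genes, and 2 were higher (Abcb1a and Abcb1b), against 44.6%. In CKD+Fe, 2 genes were below all controls (Slc22a2 and Slc47a1; 9.82% of all genes) and 2 above (Abcb1a and Abcb1b; 50.4%). Each such separation has an exact permutation p of 0.0286 and 0.06 after adjustment over the 21 tests made on these levels.

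The scaling between mice changed the sizes more than the falls. With median-of-ratios rescaling the calls over all genes in CKD were 3781 higher and 3856 lower, in place of 7181 and 1748, and with quantile normalization 3205 and 3316. All 5 falls in CKD kept their call under both, with log2 fold changes of -3.24 and -2.47 for Slc22a2, -1.82 and -0.91 for Slc47a1, -1.62 and -1.15 for Slc22a5, -1.42 and -0.99 for Abcc2, and -1.11 and -0.91 for Slc22a4. In CKD+Fe against control the split over all genes was 7159 higher and 1442 lower as deposited, 3636 and 3618 with median-of-ratios, and 2779 and 2934 with quantile normalization.

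**Figure D4:**
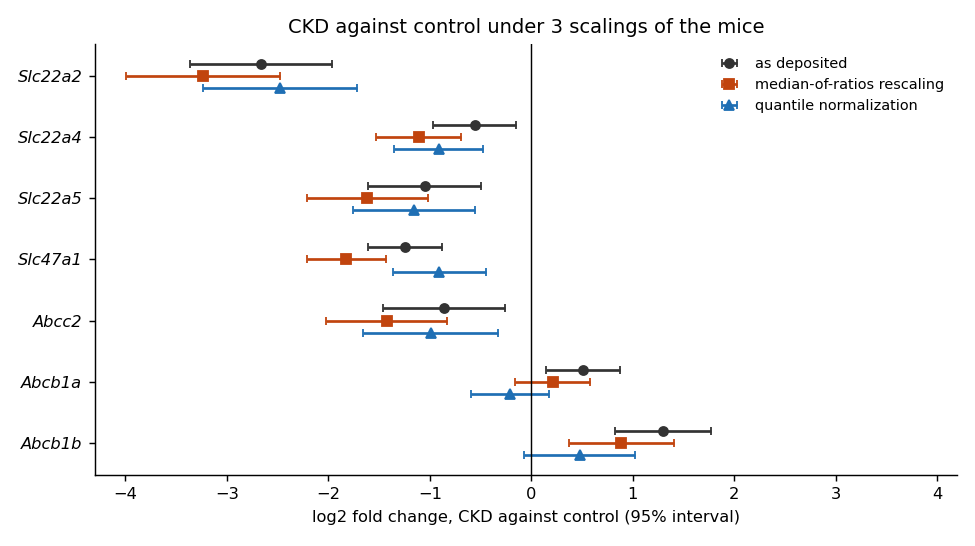
Log2 fold changes of CKD against control with 95% intervals for the 7 genes under 3 scalings of the mice (values as deposited, median-of-ratios and quantile). The 5 falls stay left of zero under each, Abcb1b stays right of zero (1.30, 0.89 and 0.48), and Abcb1a moves from 0.51 through 0.21 to -0.21.

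Set against the proximal tubule markers of the same mouse, the transporters parted. The mean log2 level of the 13 markers was subtracted from that of each gene. Slc22a2 overlapped with control relative to the markers in CKD (difference -0.75, exact permutation p = 0.114). In CKD+Fe its difference was -0.73 (exact permutation p = 0.0286, adjusted over 30 ratios 0.0571), and -0.36 with the median of the markers (p = 0.257). Slc47a1, Slc22a5 and Slc22a4 fell less than the markers, by 0.67, 0.86 and 1.36 (exact permutation p = 0.0286 each, adjusted 0.0571), with all CKD mice above all controls. For Slc47a1 the difference did not pass when the median of the markers was used (0.89, exact permutation p = 0.114). Abcc2 was 1.05 higher relative to the markers in CKD with overlap (exact permutation p = 0.0571) and 1.66 higher in CKD+Fe without overlap (p = 0.0286, adjusted 0.0571). Abcb1a and Abcb1b, which other cell types of the kidney also express, rose by 2.42 and 3.21 relative to them in CKD (exact permutation p = 0.0286 each, adjusted 0.0571). With quantile normalization the differences were smaller for Slc22a4 (0.83) and Abcb1a (1.53), still without overlap. Between CKD+Fe and CKD, the 7 differences relative to the markers ran from -0.25 (Abcb1a) to 0.60 (Abcc2, exact permutation p = 0.171), and all groups overlapped.

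The relatives of these transporters did not move as 1 family. Among other organic cation and carnitine transporters, 2 were higher in CKD by limma. Slc22a15, a less studied member of the family, rose from 0.854 ± 0.710 to 5.02 ± 1.24 FPKM (log2 fold change 1.74, adjusted p = 1.80e-05 by limma), and Slc22a21 rose by 1.17 (adjusted p = 0.00471 by limma), though by 0.36 with quantile normalization (adjusted p = 0.301). Control values of Slc22a15 ran from 0.485 to 1.92 FPKM, so it passed the limit for testing mainly through the diseased mice. Slc22a3, Slc22a16, Slc29a4 and Slc47a2 were below the limit for testing. Slc22a3, the neighbour of Slc22a2, stood at 0.169 FPKM in control and 0.270 in CKD on average, far below Slc22a2.

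Other ABC exporters showed rises as well as falls. Of 8 genes, 7 were tested, with 5 higher and 2 lower in CKD (median log2 fold change 1.10, against 0.50 over all genes). Abcc3 (MRP3), a basolateral exporter of conjugates, had the largest rise, from 0.673 ± 0.222 to 13.9 ± 3.63 FPKM (3.13, adjusted p = 6.62e-07 by limma), opposite to its apical counterpart Abcc2. The highest control value of Abcc3 was 0.955 FPKM, so it passed the limit for testing only through the diseased mice. Abcc4 (MRP4) rose by 1.49 (adjusted p = 1.18e-05) and Abcc1 (MRP1) by 1.49 (adjusted p = 3.04e-05), both by limma, and Abcc5 and Abcc10 were also called higher. Abcg2 (BCRP), the apical exporter of urate, fell from 212 ± 37.5 to 90.0 ± 14.6 FPKM (-1.22, adjusted p = 0.000145 by limma), and Abcc6 fell by 0.43 on the log2 scale (adjusted p = 0.0470 by limma). With median-of-ratios rescaling 3 of the 5 rises were called (Abcc1, Abcc3 and Abcc4), and with quantile normalization 4. Abcb4, beyond Abcb1b on chromosome 5, was below the limit for testing, at 0.0573 FPKM in control and 0.185 in CKD. In CKD+Fe against CKD none of the 7 was called, with 3 at an unadjusted p under 0.05 by limma (Abcc4, Abcc6 and Abcg2, all higher).

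**Figure D5:**
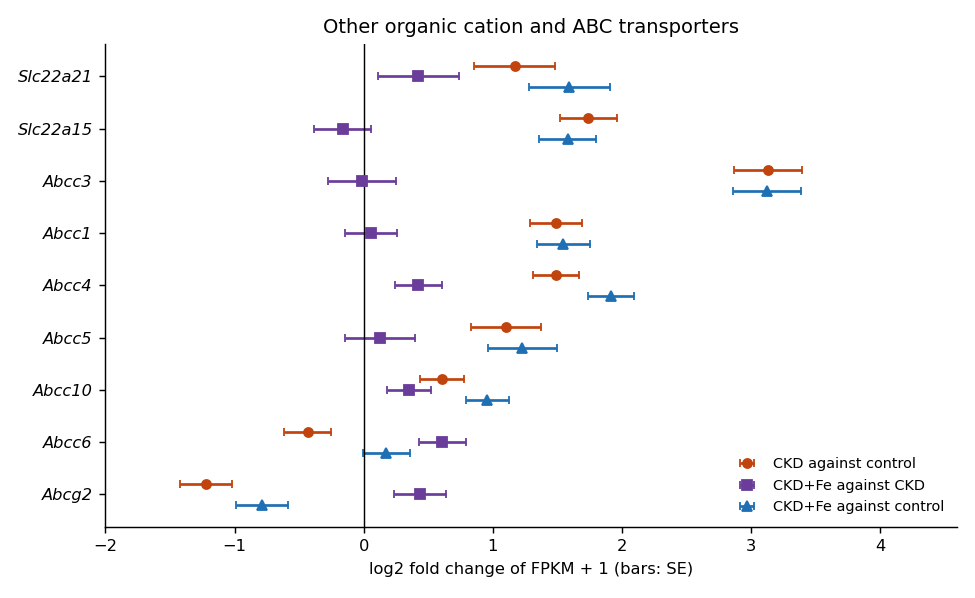
Log2 fold changes of FPKM + 1 with SE for 9 tested relatives of the 7 genes, in the 3 comparisons. Abcg2 is left of zero in both diseased groups against control, Abcc3 is the farthest right at 3.13, and the values of CKD+Fe against CKD lie between -0.16 and 0.61.

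Enzymes that make or use carnitine fell with Slc22a5. Of 8 genes, 7 were tested and 6 were lower in CKD (median log2 fold change -0.96), with 0 higher. Over all genes tested 13.3% were lower, and the median was 0.50. The fall was not particular to this list, since 11 of the 13 proximal tubule markers were also lower (median -1.75). Crot, the peroxisomal carnitine octanoyltransferase, fell from 222 ± 23.7 to 62.3 ± 12.2 FPKM (-1.83, adjusted p = 2.12e-05 by limma), and Aldh9a1, which makes the carnitine precursor, from 204 ± 27.3 to 58.3 ± 12.8 FPKM (-1.80 on the log2 scale). Cpt2, Crat, Tmlhe and the mitochondrial carrier Slc25a20 were the other 4. Cpt1a, the carnitine palmitoyltransferase of the outer mitochondrial membrane, was not called (87.9 ± 23.6 and 69.7 ± 12.6 FPKM), though it was lower with median-of-ratios rescaling. Bbox1, the last enzyme of carnitine synthesis, averaged 0.259 FPKM in control and was not tested. In CKD+Fe against CKD 0 were called, 2 had an unadjusted p under 0.05 by limma, and the values were 0.05 to 0.56, all positive.

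The genes whose log2 values ran most like each transporter were found over the 12 mice and 13132 genes with no missing value. For Slc22a2 these were Haao, an enzyme of tryptophan breakdown (Pearson r = 0.996), and Ggt1, the brush border gamma-glutamyltransferase (r = 0.994 over mice and 0.972 after group means were removed). Haao averaged 191 FPKM in controls, 31.6 with CKD and 46.1 with CKD+Fe. Etfdh, which passes electrons from fat oxidation to the respiratory chain, was the nearest to Slc22a5 (r = 0.991, and 0.989 within groups), followed by Mtfr1 (0.978). Glrx (0.984) and Osgepl1 (0.954) were nearest to Slc22a4, and Dera (0.977) and Lactb2 (0.975) to Slc47a1. For Abcb1b they were Tceal8 (0.971) and Dnajb4 (0.963), and for Abcb1a they were Asb1 (0.949) and Gm4924 (0.947). Abcc2 had the least close neighbours, Cyp2d26 (0.928) and Nudt7 (0.904). Cyp2d26 averaged 101 FPKM in controls, 55.1 with CKD and 110 with CKD+Fe, the same order as Abcc2. These r values describe mice that share groups and libraries, and the pairs were picked as the highest of many.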

How the data were processed

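Whole kidney RNA of 12 mice (3 groups of 4, 1 library each) was sequenced by the authors as stranded mRNA libraries with single-end reads. Per the labels, the submitters' processing notes name bcl2fastq 2.19, STAR 2.5.2, Cufflinks 2.1.1 and GRCm38. The authors deposited FPKM values per gene and mouse, each with a status; 30 values marked as failed were treated as missing, 0 of them in the 7 genes. FPKM are scaled to each library, so total RNA per kidney is not measured, and depth in reads is unknown.

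All 12 mice were fitted together on log2(FPKM + 1), with no covariate, with limma 3.58.1 under R 4.3.3 (a linear model per gene, moderated with a variance trend), for genes that reached 1 FPKM in 4 or more mice. Two-sided p values were adjusted by Benjamini-Hochberg across the table, and 0.05 was the threshold. A fold change on this scale understates the change of genes near 1 FPKM, such as Abcb1a. Means and SDs are of FPKM as deposited. Exact two-sided permutation tests used all 70 arrangements of 4 against 4 (smallest p 0.0286). The fit and the permutation test were tested on simulated data. Labels name no batch and do not tell separate cages or litters, so p values measure the spread between these mice.

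Shared 50-base words were counted in GENCODE M21 transcripts, and promoters came from RefSeq. The members and lists were chosen with earlier results of these data known. Named are the 7 genes, their family neighbours, up to 2 called genes with the largest rise and 2 with the largest fall per list, and the 2 genes most like each. Some genes of the lists of related transporters and of transcription factors, and 1 promoter motif, are not reported here. Alternatives were a pseudocount of 0.1, no filter, a mean of at least 5 FPKM, both rescalings, 2 groups only, array weights, no variance trend, adjusted p thresholds of 0.5 (the cutoff in the study's sequencing methods) and 0.01, and leaving out mice. Ratios after the rescalings, and sums of neighbouring genes that share words, were added after seeing the data.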

Additional observations from a re-analysis of the deposited data

Results flagged for a closer look

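Of 30 groups of 4 values tested for a mouse far from the other 3 (7 genes and 3 ratios in 3 groups), 2 were picked out, where chance picks about 1 in 20. Slc22a5 in control mouse 042301 was 34.2 FPKM, against 73.4 to 77.5 FPKM in the other 3 controls. In the same mouse the 13 proximal tubule markers summed to 8594 FPKM (others 10341 to 11447), the endothelial markers to 387 (170 to 188) and the papilla and urothelium markers to 141 (1.40 to 53.3), and their part in the low value was not tested.

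Slc22a4 in CKD mouse 110310 was 11.9 FPKM, against 16.6 to 17.0 FPKM in the other 3 CKD mice. This mouse had endothelial markers at 220 FPKM (others 127 to 159) and proximal tubule markers at 2353 FPKM (others 1449 to 2859), and their part was not tested.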

How the results depend on the processing

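Of 393 member fold changes under alternatives, 370 kept their direction and side of the threshold, as did 226 of 237 level tests and 384 of 390 ratio tests. The 5 genes lower in CKD were 3 at an adjusted p under 0.01. The 2 genes higher in CKD were 1 with median-of-ratios rescaling, 0 with quantile normalization, 0 with the mean of at least 5 FPKM (which leaves both out), 1 at an adjusted p under 0.01, and 1 to 2 when single mice were left out. The 2 genes higher in CKD+Fe than in control were 1 with either rescaling and 0 with the mean of at least 5 FPKM. For CKD+Fe against CKD, 1 gene (Abcc2) was higher with array weights, without the 3 mice that stood apart, and at an adjusted p under 0.5, and 0 otherwise. Directions that turned were Abcb1a with quantile normalization (-0.213 in CKD and -0.0210 in CKD+Fe against control), Abcc2 in CKD+Fe against control with median-of-ratios rescaling (-0.363), the ratio of Slc22a5 to Slc22a4 in CKD+Fe against CKD with a pseudocount of 0.1 (-0.00372) and with quantile normalization (-0.00841), and Slc47a1 relative to the median of the markers in CKD+Fe against CKD (0.122), none past the threshold; the cause was not tested. Abcc2 in CKD+Fe against control passed with array weights (0.42, adjusted p = 0.0362 by limma). Over all genes, CKD+Fe against CKD gave 1 higher and 0 lower, with 79 and 56 by array weights, 51 and 32 without the 3 mice, 92 and 72 at an adjusted p under 0.5, 9 and 4 without CKD+Fe mouse 042702, and 0 higher with a pseudocount of 0.1, no filter or the 2 groups alone. At an adjusted p under 0.5, 2681 genes were lower in CKD and 2388 in CKD+Fe against control, and with the mean of at least 5 FPKM 4749 were higher in CKD+Fe. No paired analysis was possible because the groups share no replicate numbers. Depth in reads is unknown, so no limit of detection can be given for Abcb1a.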

Other observations

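Apical scaffold proteins, which hold brush border transporters in place, parted in CKD. Of 4 genes tested, Pdzk1 fell from 567 ± 96.9 to 154 ± 37.6 FPKM and Slc9a3r1 (NHERF1) from 224 ± 36.0 to 119 ± 23.5 FPKM, while Ezr (ezrin), which links membranes to actin, rose from 105 ± 3.77 to 194 ± 29.4 FPKM. All 3 calls are by limma and were also made under both rescalings, though the rise of Ezr was 0.87 on the log2 scale as deposited and 0.30 with median-of-ratios (adjusted p = 0.0497 by limma). Slc9a3r2 was not called as deposited and was lower with median-of-ratios (-0.99, adjusted p = 0.0204 by limma). In CKD+Fe against CKD 0 of the 4 were called at an adjusted p under 0.05, and 0 at an unadjusted p under 0.05.

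Transcription factors known for genes of this kind moved in both directions in CKD by limma. Hnf4a, which drives proximal tubule and liver genes, fell from 197 ± 16.7 to 70.2 ± 20.5 FPKM (n = 3 mice in each group, since the values of mice 042301, 120102 and 122320 were marked as failed). Ahr, the receptor for aryl hydrocarbons, rose from 1.48 ± 0.138 to 6.47 ± 1.71 FPKM, and Nfe2l2 (NRF2), the factor of the antioxidant response, from 38.7 ± 3.48 to 84.2 ± 10.8 FPKM. These 3 calls were also made under both rescalings. Ppara was not called, and Nr1i3 was below the limit for testing. Nr1i2 was not called in CKD as deposited but was called lower with quantile normalization. In CKD+Fe against control Nr1i2 was called higher as deposited (0.52, adjusted p = 0.0157 by limma) and under neither rescaling. In CKD+Fe against CKD 0 of the factors tested were called at an adjusted p under 0.05, and 0 at an unadjusted p under 0.05. Whether any factor acted on the transporters was not tested.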
